A study of Mus musculus with 38 samples.

Results

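RNA bound to heavy polysomes was compared between mouse zygotes in interphase and two-cell embryos in interphase. The comparison uses 6 of the 36 libraries of the series that have a column of values, namely two-cell libraries A, B and C and zygote libraries B, C and D, all from the polysome fraction. Libraries were assigned by stage, fraction and replicate letter in the sample titles, and no measured value entered that assignment. The comparison itself was chosen with earlier results of these data known. Both groups are embryos of ICR mice, labelled WT under treatment, from females stimulated with PMSG and hCG and mated with males of the same strain. Zygotes with pronuclei were taken when they were recovered from the oviducts, whereas two-cell embryos had first been cultured in KSOM medium, so that stage and culture cannot be told apart. The labels name no drug for either group, although the methods on nocodazole can be read to cover every two-cell embryo, so that the two-cell group is not certain to be free of it. Embryos of both stages were lysed after cycloheximide, which holds ribosomes on their mRNA. SSP-profiling collected 10 fractions from each sucrose gradient and pooled the 5 heavier ones as the polysome sample and the 5 lighter ones as the non-polysome sample. The design text describes biological triplicates, while the number of embryos per gradient is not given in the sources used here.

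In the mouse, the zygote lives mainly on mRNA that the oocyte made and stored, and its own genome becomes broadly active at the two-cell stage. The burst at this stage includes gene families that are close to silent in most other cells, such as Zscan4, Tcstv, Usp17l and Zfp352, while stored maternal mRNAs are deadenylated and degraded. An mRNA found with heavy polysomes carries several ribosomes and is taken as translated, so the polysome fraction reads out both which mRNAs exist and which are loaded. In such bulk samples less mRNA of a gene and weaker loading of the same mRNA cannot be told apart from the polysome fraction alone.

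Values are FPKM, fragments scaled to the length of the gene's exons and to all mapped fragments of the library, so every level is relative to that library's total. The 3 two-cell libraries held 4274, 4294 and 4030 genes at 1 FPKM or more and the zygote libraries held 4593, 4556 and 4630. The groups did not overlap in this count, with 4199 ± 147 (SD, n = 3) genes in two-cell and 4593 ± 37 (SD, n = 3) in zygote polysomes, and the exact two-sided permutation test gave p = 0.1, the smallest value that 3 against 3 libraries allow. Zygote libraries resembled each other more closely, with pairwise Pearson r across genes of 0.984 to 0.988, than two-cell libraries did, with 0.843 to 0.892, and r between the groups ran from 0.577 to 0.645. The median SD of a gene within the group was 0.479 on the log2 scale in two-cell and 0.147 in zygote polysomes. The labelled cell type was visible in the markers, since Gdf9 and Ooep were abundant in all 6 libraries. Cumulus and granulosa markers stayed low: none of the 14 cumulus and granulosa genes in the table reached the minimum for testing, with summed levels of 0.142 to 5.40 FPKM in two-cell and 0.428 to 0.565 FPKM in zygote libraries.

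Polysomes of both embryo stages carried different amounts of mRNA for a large share of the genes tested. Of 4747 genes whose mean reached 1 FPKM, limma called 697 higher in two-cell polysomes (14.7% of those tested) and 1414 lower (29.8%), at a Benjamini-Hochberg adjusted p below 0.05 and a fold change above 2. Fold changes here are differences of log2(FPKM + 1), which understate the change of genes near 1 FPKM. The median over all tested genes was -0.44, so that the typical gene had a lower relative level in two-cell polysomes. Quantile normalization moved that median to -0.16 and the counts to 844 higher and 1026 lower genes, which raised the share of higher calls from 33.0% to 45.1%, while scaling every library to the same sum moved the median to -0.86. In 1003 genes (21.1%) every two-cell library lay above every zygote library, and in 2014 genes (42.4%) every one lay below. Two-cell libraries also held more genes without signal. The smallest value, 0.01 FPKM, was given to 41.7%, 42.5% and 45.4% of all genes in two-cell A, B and C. In zygote B, C and D it was given to 26.5%, 27.3% and 26.2%. At 0.1 FPKM or more, the mean count was 8706 genes in two-cell and 10321 in zygote libraries. The part of this in the lower calls was not tested. The plot of mean levels shows both sets of genes over a wide range of levels.

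**Figure D1:**
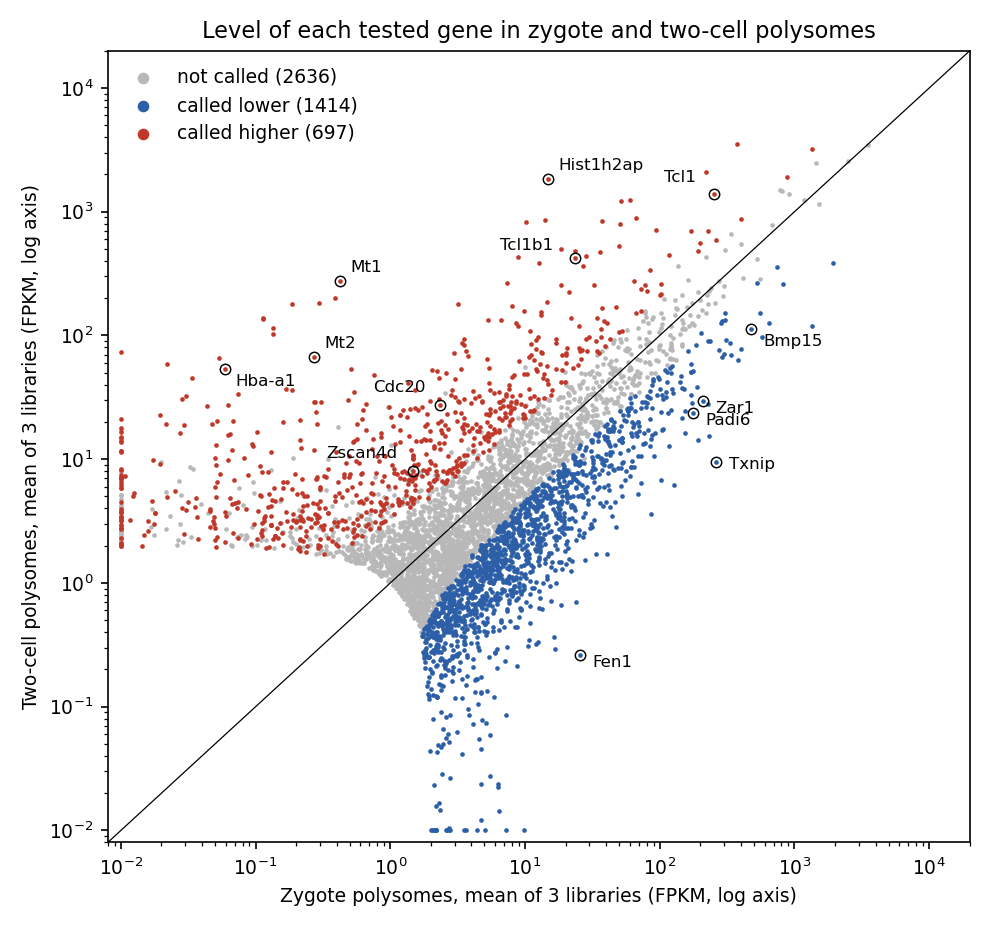
Mean level of each of the 4747 tested genes in zygote (x axis) and two-cell (y axis) polysomes, in FPKM on log axes, each point a gene averaged over 3 libraries. Red points were called higher (697) and blue points lower (1414) in two-cell polysomes; Mt1 and Hist1h2ap lie far above the diagonal, and Txnip and Fen1 far below it.

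The largest rise of a protein-coding gene was that of Mt1, which encodes metallothionein 1, a small cysteine-rich protein that binds zinc and other metals. Mt1 stood at 201, 304 and 325 FPKM in two-cell libraries A, B and C and at 0.903, 0.284 and 0.079 FPKM in zygote libraries B, C and D. Every two-cell library was far above every zygote library, by 7.62 on the log2 scale (SE 0.30, limma adjusted p = 2.1e-05). Its neighbour Mt2 went from 0.207, 0.118 and 0.485 FPKM to 48.6, 66.0 and 87.6 FPKM, a rise of 5.72 (SE 0.27). Both remained high in two-cell embryos in M-phase, with means of 820 FPKM for Mt1 and 291 FPKM for Mt2, and Mt1 had been between 1.17 and 1.59 FPKM in polysomes of GV oocytes, MII oocytes and M-phase zygotes. Of the 4 genes tested on a list of metallothioneins and zinc-response genes, added after the values were seen, the other 2 were not called: Mtf1, the metal-responsive transcription factor, gave -0.68 and Slc30a1, a zinc transporter, -0.69.

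The sequence just before the start of Mt1 and Mt2 is shown because metallothionein genes are known for metal response elements, whose core reads TGCACNC or TGCGCNC. The stretches end at the base before the RefSeq start (GRCm38.p6) and capitals mark a match to the core on either strand. Sequence after that start was not searched, so that a core lying there would not show. They are chr8:94178959-94179088 for Mt1 and chr8:94172488-94172617 for Mt2, both on the plus strand.
Mt1: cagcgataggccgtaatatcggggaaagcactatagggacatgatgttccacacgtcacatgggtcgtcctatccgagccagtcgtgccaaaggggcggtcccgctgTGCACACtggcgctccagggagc
Mt2: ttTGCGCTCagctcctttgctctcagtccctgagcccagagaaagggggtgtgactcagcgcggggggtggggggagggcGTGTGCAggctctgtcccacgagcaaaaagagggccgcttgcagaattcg
In the 250 bases before the start, this core was found in 33.7% of the 332 matched promoters of protein-coding genes called higher, 33.6% of the 2928 of tested protein-coding genes and 23.8% of all 27025 promoters in the table. The first 2 shares were nearly equal.

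Hist1h2ap, which encodes a replication-dependent histone H2A, was the second largest rise of a protein-coding gene and the most abundant protein-coding gene called higher. It stood at 1240, 2758 and 1568 FPKM in two-cell and 10.6, 14.9 and 18.7 FPKM in zygote polysomes, a difference of 6.83 (SE 0.34, limma adjusted p = 4.3e-05). The rise was not a first appearance, since the mean was 143 FPKM in GV oocytes and 85.9 FPKM in MII oocytes. Hist1h2ap shares 93.4% of its 31-base words with Hist1h2ao, so the level of the single gene is uncertain. Rpp25, which encodes a protein subunit of RNase P and RNase MRP, rose by 5.98 (SE 0.19), from 0.0726, 0.0786 and 0.01 FPKM to 68, 60.5 and 68.9 FPKM. It had been below 1 FPKM on average at every earlier stage, GV, MII and M-phase zygotes included.

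Among the other large rises, AF067061 is on the list of two-cell burst genes and B020004C17Rik and B020031M17Rik are little characterised. B020004C17Rik went from 0.0216, 0.0481 and 0.0323 FPKM to 43.1, 54.4 and 38.8 FPKM (log2 fold change 5.47, SE 0.21), AF067061 from 0.203, 0.01 and 0.01 to 35.9, 33.4 and 31.3 FPKM (5.01, SE 0.20), and B020031M17Rik from 0.01, 0.111 and 0.01 to 27.7, 22.6 and 30.5 FPKM (4.73, SE 0.21). None of the 3 genes overlapped between groups. The value 0.01 is the smallest in the table and stands for no signal. Hba-a1, which encodes the alpha chain of haemoglobin, was at 43.8, 82.9 and 33.5 FPKM in two-cell and at most 0.112 FPKM in zygote polysomes (5.58, SE 0.34). It was the only one of 5 erythroid genes in the table that reached the minimum for testing, in a list added after the values were seen, and the beta chain genes Hbb-bs and Hbb-bt were at most 0.0404 and 0.01 FPKM in any library. The plot of the 15 largest changes in each direction gives every library.

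**Figure D2:**
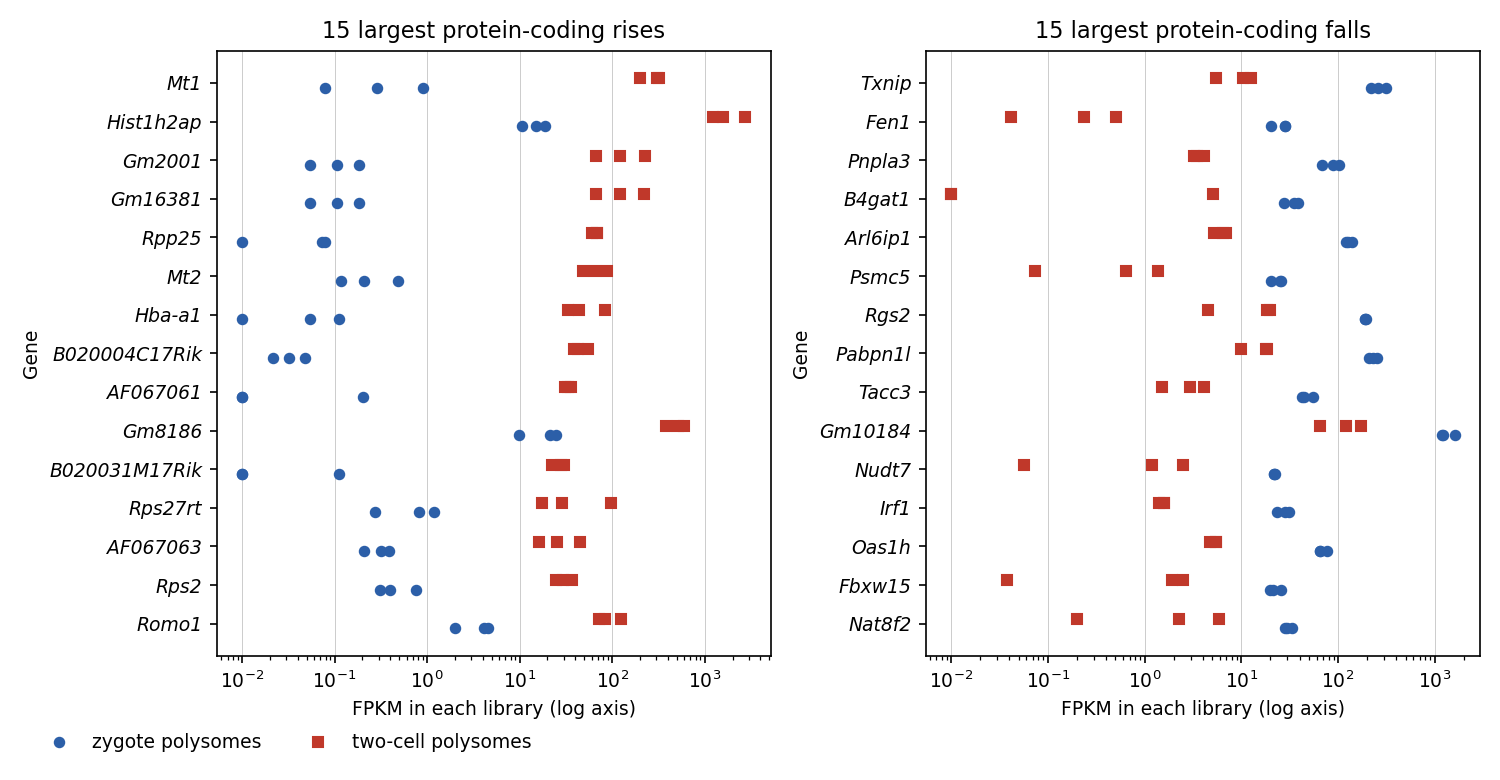
FPKM (log axis) in each library for the 15 largest rises (left) and 15 largest falls (right) of protein-coding genes, taken from called genes whose groups did not overlap and whose mean over the 6 libraries reached 10 FPKM. Each symbol is 1 library, squares for the 3 two-cell and circles for the 3 zygote libraries; Mt1 is at 201 to 325 FPKM in two-cell against at most 0.903 FPKM in zygote polysomes, and Txnip at 5.47 to 12.5 against 217 to 311 FPKM.

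Of 48 burst genes in the table, 30 passed the minimum, 22 of them with a zygote mean below 1 FPKM, so that the two-cell level itself decided which members were tested. The counts are therefore a description: 22 of the 30 were called higher and 1 lower, where 14.7% and 29.8% of all genes were. With no minimum, 18 of all 48 were called higher and 1 lower, and the median log2 fold change was 1.38, against -0.01 for all 23125 genes. Zscan4d, a zinc-finger gene that marks the two-cell stage, was at 9.96, 8.62 and 5.69 FPKM in two-cell and 2.40, 1.11 and 0.948 FPKM in zygote polysomes (1.89, SE 0.31, limma adjusted p = 0.0024). Zscan4c was at 9.27, 2.38 and 5.55 FPKM against 0.547, 0.0407 and 0.311 FPKM (2.25, SE 0.42). Zfp352, another zinc-finger gene of this stage, was at 5.63, 5.10 and 4.37 FPKM against at most 0.0171 FPKM (2.57, SE 0.20). Tmem92, a predicted membrane protein gene, was at 24, 16.7 and 25.7 FPKM against 1.28, 1.36 and 0.402 FPKM (3.54, SE 0.29). Usp17lb, of a family of deubiquitinase genes, was at 15.5, 20.8 and 0.549 FPKM against at most 0.364 FPKM (2.77, SE 0.94). It lost its call without two-cell A (2.27) or B (2.07) and without zygote B, C or D (2.81, 2.86 and 2.64).

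Some burst genes were already present in the zygote. Tcstv3 rose by 1.85 (SE 0.28) from a zygote level that was already 16.3, 12.5 and 15.1 FPKM. Tcstv1 was at 85.4, 96.0 and 61.5 FPKM against 46.1, 34.7 and 39.3 FPKM, which did not overlap but gave 0.98 and so missed the fold limit. Dppa2, a chromatin regulator of pluripotent cells, gave -0.82 (SE 0.38, limma adjusted p = 0.11).

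The Zscan4 genes of chr7:10794242-11519111 (GRCm38) are near-copies, and 6 of the 7 tested were called higher, against 14.7% of all genes. Zscan4c, Zscan4d and Zscan4f share 91.5%, 65.0% and 91.7% of their 31-base words with other genes, so their reads can move between members, and the summed level of the family, 23.8 to 50.7 FPKM in two-cell against 2.06 to 4.47 FPKM in zygote polysomes, is less exposed to this. Their promoters show how alike the copies are. Capitals mark the longest run of letters shared by the 3 tested members with a RefSeq promoter, 33 bases that hold TATAAAA and occur in 4 of the 27025 promoters, those of Zscan4b, Zscan4c, Zscan4d and Zscan4f. The stretches are chr7:11005645-11005744 on the plus strand and chr7:11166149-11166248 on the minus strand.
Zscan4c: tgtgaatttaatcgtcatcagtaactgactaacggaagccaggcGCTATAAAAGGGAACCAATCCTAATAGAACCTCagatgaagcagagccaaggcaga
Zscan4d: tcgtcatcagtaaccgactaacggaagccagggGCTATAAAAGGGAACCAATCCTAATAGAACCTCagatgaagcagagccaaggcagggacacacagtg
B020004C17Rik, on another chromosome, holds TATAAA, the core of a TATA box, with its first base 30 bases before the start. Its stretch is chr14:57015034-57015133 on the plus strand, with TATAAA in capitals.
B020004C17Rik: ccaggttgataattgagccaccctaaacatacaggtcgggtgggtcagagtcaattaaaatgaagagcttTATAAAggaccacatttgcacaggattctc

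TATAAA on the sense strand, 40 to 20 bases before the start, was found in 15 of 332 promoters of protein-coding genes called higher, or 4.52%, and in 1.47% of those called lower. The share was 2.02% over the 2928 tested protein-coding genes that matched a promoter and 2.31% over all promoters in the table. The 15 genes include B020004C17Rik, Zscan4f, Usp17lb, Oog3, the imprinted gene Phlda2 and the hormone genes Hcrt and Sct. Gm13040 and Gm13057, which lie near Oog3 on chromosome 4, are also among them. So are Gm11487, Gm11758 and Gm428, which lie together elsewhere on chromosome 4. They share 62.0%, 99.9% and 97.4% of their 31-base words with other genes, so that the 15 promoters are not all separate cases. The E-box CACGTG went the other way, with 4.82% of promoters called higher against 11.3% called lower, 10.7% of those tested and 6.86% of all. GGGCGG, the core bound by Sp1, was in 56.9% of promoters called higher, 59.98% of those called lower and 62.1% of those tested. CCAAT was in 41.9%, 44.9% and 44.3%. These 3 motifs were searched on both strands in the 250 bases before the start, and the shares are descriptions with no test.

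Several runs of neighbouring genes were mostly called higher. Runs were taken as at least 5 called genes in one direction with no gap above 500000 bases, a rule set after the values had been seen, and there were 21 runs of higher and 47 of lower genes. On chr12:87480108-88324026, 15 of 19 tested genes were higher, among them Gm2001 and Gm16381, and 3 were lower, against 14.7% and 29.8% of all genes; the rule for runs itself selects for a high share. Gm2001 was at 123, 66.2 and 227 FPKM against 0.0542, 0.107 and 0.182 FPKM (6.80, SE 0.43), and its sequence words are all shared with Gm16381. Gm4027 of the same run was at 15, 8.23 and 16 FPKM against at most 0.0971 FPKM (3.70, SE 0.28).

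On chr11:60417145-60693075, 12 of 15 tested genes were higher and 1 lower, with a median of 4.32, and most are annotated as unprocessed pseudogenes. Gm12621 was at 154, 215 and 168 FPKM against 0.336, 0.215 and 0.01 FPKM (7.24, SE 0.23), and Gm12627 at 170, 205 and 176 FPKM against 0.286, 0.585 and 0.01 FPKM (7.18, SE 0.24). Both were higher still in M-phase two-cell embryos, with means of 1245 and 1143 FPKM. Gm12621 shares 93.2% of its words with Gm12613, so one source of RNA can be counted for several rows. On chr13:119827961-120318178, 9 of 11 tested genes were higher, Tcstv3, AF067061, AF067063 and B020031M17Rik among them, with a median of 3.35. On chr4:73401032-73920760, all 9 tested genes were higher, Gm11487 and Gm13867 among them, with a median of 2.17. Gm11487 and Gm13867 share 62.0% and 6.58% of their words with other genes and the other members at least 93.4%. Here too one source of RNA can be counted for several rows. Over all genes tested 14.7% were higher, and the rule selects runs with a high share.

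A run of 7 genes on chr1:24611535-24616197 lies in a nuclear copy of mitochondrial DNA. All 7 were higher, against 14.7% of all genes, with a median of 4.21. All words (100%) of Gm28437 and Gm10925 also occur in the mitochondrial genes mt-Co3 and mt-Atp6. Gm28437 was at 2001, 1410 and 2874 FPKM in two-cell and 208, 166 and 288 FPKM in zygote polysomes (3.22, SE 0.31), and Gm10925 at 1123, 714 and 1841 FPKM against 49.4, 53.6 and 50.9 FPKM (4.45, SE 0.33). Reads of the mitochondrial genome and of this copy cannot be separated here. The 7 genes together took 5.07%, 2.65% and 7.13% of all FPKM in two-cell libraries A, B and C and 0.407%, 0.347% and 0.473% in zygote libraries B, C and D.

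The Tcl1 family was abundant at both stages and rose as a whole. Tcl1, a co-activator of the kinase Akt, and its tandem relatives Tcl1b1 to Tcl1b5 lie on chr12:105146014-105222793 and are expressed in oocytes and early embryos. All 6 were called higher, against 14.7% of all genes, also with quantile normalization, where 844 of 4747 genes were called higher, and with libraries scaled to one sum, where 684 were. Their summed level was 2156 to 2490 FPKM in two-cell against 293 to 354 FPKM in zygote polysomes. Tcl1 was at 1285, 1401 and 1468 FPKM against 279, 226 and 248 FPKM (2.46, SE 0.15, limma adjusted p = 8.9e-05). Tcl1b1 was at 376, 471 and 421 FPKM against 25.3, 22.9 and 22.6 FPKM (4.10, SE 0.18). Tcl1b2, Tcl1b3, Tcl1b4 and Tcl1b5 rose by 3.45, 3.36, 3.58 and 3.38.

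The Tcl1 genes had been high at earlier stages. Mean polysome levels of Tcl1 were 312 FPKM in GV oocytes, 1469 FPKM in MII oocytes and 2534 FPKM in M-phase zygotes, and 47.4 FPKM in M-phase two-cell embryos. Those of Tcl1b1 were 34.7, 281, 396 and 15.1 FPKM, so that its interphase two-cell level was above all of these, whereas that of Tcl1 was below its level in M-phase zygotes. For both genes the interphase zygote was lower than MII oocytes and M-phase zygotes. Comparisons that share the zygote libraries are not independent of each other.

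The promoters of Tcl1b1 to Tcl1b5 share a run of 25 bases, shown in capitals, that occurs in no other promoter of the table. The stretches, GRCm38.p6 and plus strand, are chr12:105159584-105159703 for Tcl1b1, chr12:105146899-105147018 for Tcl1b2 and chr12:105202275-105202394 for Tcl1b4.
Tcl1b1: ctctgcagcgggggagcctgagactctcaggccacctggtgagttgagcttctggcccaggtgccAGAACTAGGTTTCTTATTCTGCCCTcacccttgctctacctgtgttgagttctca
Tcl1b2: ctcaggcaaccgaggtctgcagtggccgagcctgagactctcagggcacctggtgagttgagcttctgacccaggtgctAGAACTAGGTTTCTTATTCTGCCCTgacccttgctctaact
Tcl1b4: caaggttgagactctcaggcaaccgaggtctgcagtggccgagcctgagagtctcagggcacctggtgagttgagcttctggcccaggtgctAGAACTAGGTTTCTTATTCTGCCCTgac

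Among homeobox genes of the Obox family and other early transcription factors, 16 of 44 listed were tested. With 3 higher and 4 lower, or 18.8% and 25%, the shares were close to the 14.7% and 29.8% of all genes tested, with a median of -0.08, a sign that turned to 0.28 with quantile normalization. Obox8 was at 4.13, 6.6 and 13.7 FPKM in two-cell libraries and listed at 0.01 FPKM in all zygote libraries (3.04, SE 0.38). Obox5 was at 54.6, 31.1 and 22.7 FPKM against 6.05, 5.31 and 5.05 FPKM (2.43, SE 0.33), and Obox6 rose by 2.09 (SE 0.37). In the other direction, Klf17, a zinc-finger factor of oocytes and early embryos, went from 361, 279 and 295 FPKM to 151, 53.0 and 72.1 FPKM (-1.88, SE 0.38), and Obox7 and Sall4 gave -1.46 and -1.35. Pou5f1, the pluripotency factor Oct4, gave -0.63 (SE 0.25, limma adjusted p = 0.073).

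Of 28 tested RNA polymerase II subunits and general factors, 8 rose and 10 fell, or 28.6% and 35.7% against 14.7% and 29.8% of all genes tested, with a median of -0.56 that was -0.24 without two-cell B and turned to 0.10 over the 15 members with a mean of at least 5 FPKM. Polr2c, the third largest subunit of the polymerase, went from 1.87, 1.63 and 1.69 FPKM to 23.3, 30.9 and 25.4 FPKM (3.33, SE 0.20), and the small subunits Polr2l and Polr2j and the TFIID subunit Taf10 rose by 1.97, 1.94 and 1.67. Gtf2b, the general factor TFIIB, went from 15.2, 15.5 and 14.3 FPKM to 2.30, 2.86 and 0.0636 FPKM (-2.75, SE 0.48), and Tbp, the TATA-binding protein, fell by 1.47 on the log2 scale. Polr2i, a small polymerase subunit, gave 0.68 (SE 0.39, limma adjusted p = 0.18) with overlapping groups, and 1.07 past the threshold without two-cell C.

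More cytosolic ribosomal protein mRNAs rose than fell. Of 86 listed, 59 were tested, 24 rose and 5 fell, or 40.7% and 8.47% against 14.7% and 29.8% of all genes tested, and the median was 0.82. In 12 of the 24 the zygote mean was below 1 FPKM, so that they passed the minimum through the two-cell libraries. Without two-cell B the median was 0.36, with 19 higher and 6 lower. Their summed level was 574 to 1001 FPKM in two-cell and 266 to 315 FPKM in zygote polysomes. Rpl41 was at 60.3, 87.0 and 102 FPKM against 2.51, 3.49 and 4.49 FPKM (4.22, SE 0.28), Rplp2 rose by 3.77 (SE 0.24), and Rps2 was at 29.2, 36.8 and 25 FPKM against 0.762, 0.311 and 0.394 FPKM (4.39, SE 0.24). Rpl7l1, Rpl4 and Rpl14 fell, with -2.38, -2.28 and -1.32. Rpl35 gave -0.52 (SE 0.25, limma adjusted p = 0.12), with values of 1.01, 1.6 and 1.84 FPKM against 1.87, 2.58 and 3.22 FPKM. The median of this group stayed positive with quantile normalization, at 0.93, and with libraries scaled to one sum, at 0.70. Many ribosomal protein genes have processed pseudogenes, and 48.8% of the words of Rps2 occur in other genes, so single levels are uncertain.

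Mitochondrial ribosomal protein mRNAs went the other way. Of 52 tested, 1 rose and 22 fell (42.3%, against 29.8% of all genes), with a median of -0.89 and summed levels of 306 to 476 FPKM against 583 to 672 FPKM. Mrpl9 was at 6.11, 6.14 and 6.15 FPKM in two-cell and 52.3, 49.6 and 53.0 FPKM in zygote polysomes (-2.88, SE 0.18), and Mrpl16 fell by 3.05 on the log2 scale. Mrpl43, the exception, rose by 1.09 (SE 0.21). Nucleolar factors for making ribosomes gave 4 higher and 18 lower of 46 tested, and a median of -0.69. The shares were 8.70% and 39.1%, against 14.7% and 29.8% of all genes. In 10 of the 18 the two-cell mean was below 1 FPKM, so that they passed the minimum through the zygote libraries. The same held for 554 of all 1414 lower genes. Nip7, a factor for 60S subunit assembly, was at 6.59, 11.9 and 8.90 FPKM against 1.97, 1.38 and 1.49 FPKM (1.93, SE 0.26). Nop56, a core protein of box C/D ribonucleoproteins, was at 3.86, 4.01 and 2.47 FPKM against 43.2, 45.0 and 45.3 FPKM (-3.37, SE 0.22).

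Of 36 tested initiation and elongation factors, 3 rose and 14 fell (median -0.77), which is 8.33% and 38.9% against 14.7% and 29.8% of all genes tested, and the other 19 were not called. Eif3i, a subunit of initiation factor 3, was at 34.9, 44.3 and 26.4 FPKM against 6.46, 5.93 and 6.92 FPKM (2.26, SE 0.24). Eif4ebp1, the inhibitor of cap-dependent initiation known as 4E-BP1, rose by 1.91 (SE 0.29) to 2.12, 5.07 and 2.90 FPKM. Eif1b went from 257, 307 and 308 FPKM to 66.9, 59.2 and 74.3 FPKM (-2.10, SE 0.18). All 4 called genes among 8 tested aminoacyl-tRNA synthetases fell, led by Sars with -2.60.

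Of 27 tested proteasome subunits 3 rose and 16 fell (59.3%), 10 of the 16 with a two-cell mean below 1 FPKM, with a median of -1.31 and summed levels of 103 to 189 FPKM against 264 to 329 FPKM. Psmc5, an ATPase of the regulatory cap, went from 20.5, 25.6 and 25.4 FPKM to 0.0731, 1.38 and 0.649 FPKM (-3.94, SE 0.32), and the core subunits Psma7 and Psma1 fell, with -3.36 and -3.14. Psmb3, Psmb6 and Psmd3 rose, by 2.53, 2.30 and 1.27, and Psmd3 lost its call without zygote B, C or D (1.34, 1.29 and 1.19). Chaperones gave 1 higher and 7 lower of 22, and the 31.8% lower was close to the 29.8% of all genes, with the chaperonin subunits Cct8 and Cct3 at -2.5 and -2.21 and the small heat shock gene Hspb1 up by 2.03. Splicing factors gave 7 higher and 11 lower of 30, or 23.3% and 36.7% against 14.7% and 29.8%. The Sm protein genes Snrpd2, Snrpg and Snrpe rose by 2.22, 2.06 and 1.82, whereas Snrnp40 and Srsf2 fell, with -2.49 and -1.83.

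Nuclear genes of oxidative phosphorylation had a higher summed level, while the shares of members that rose and fell were close to those of all genes. The sum was 810 to 1397 FPKM in two-cell and 455 to 514 FPKM in zygote polysomes, while 6 rose and 18 fell of 55 tested, or 10.9% and 32.7% against 14.7% and 29.8%, with a median of -0.31. The median was -0.11 without two-cell A, where 10 rose and 15 fell, and -0.53 without two-cell B, where 6 rose and 19 fell. With quantile normalization 12 rose and 12 fell. Over the 20 members with a mean of at least 5 FPKM 5 were higher and 4 lower. The sum was carried by few genes. Without Cox8a and Cox6b2 it was 264, 448 and 310 FPKM in two-cell libraries A, B and C. In zygote libraries B, C and D it was then 401, 419 and 443 FPKM, so that the groups overlapped. Cox8a, a small subunit of cytochrome c oxidase, was at 343, 684 and 389 FPKM against 38.8, 26.8 and 43.1 FPKM (3.63, SE 0.32), and Cox6b2, a form of another subunit known from testis, at 202, 265 and 300 FPKM against 15.7, 11.9 and 28.3 FPKM (3.78, SE 0.34). Uqcrc2 and Ndufa10, of complexes III and I, gave -3.11 and -2.73. Romo1, which encodes a small mitochondrial inner membrane protein, was at 72.0, 124 and 83.2 FPKM against 4.09, 1.98 and 4.5 FPKM (4.39, SE 0.33) and had been at 110 FPKM in GV oocytes.

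Of 43 tested histone genes, 12 rose and 7 fell, or 27.9% and 16.3% against 14.7% and 29.8% of all genes tested, with a median of 0.50 that was 0.86 without two-cell A and 0.16 without two-cell B, and the list summed to 1941 to 4040 FPKM in two-cell and 733 to 856 FPKM in zygote polysomes. Hist1h2ap made up most of the two-cell sums, and without it they were 700.3, 1282 and 767 FPKM against 722, 799.9 and 838 FPKM, with overlapping groups. Hist1h4c was at 27.2, 68.4 and 37.1 FPKM against 2.84, 3.14 and 3.12 FPKM (3.38, SE 0.34), and Hist1h4d rose by 2.95 (SE 0.49). H2afz, the variant H2A.Z, was at 40.3, 60.9 and 22.3 FPKM against 7.21, 4.01 and 5.05 FPKM (2.63, SE 0.39). H1foo, the oocyte linker histone, fell by 1.56 on the log2 scale, from 68.6, 85.9 and 84.6 FPKM to 22.3, 26.9 and 30.1 FPKM. Hist1h2ba, a germ-cell H2B, and H3f3a, of the replacement histone H3.3, gave -1.80 and -1.63.

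**Figure D3:**
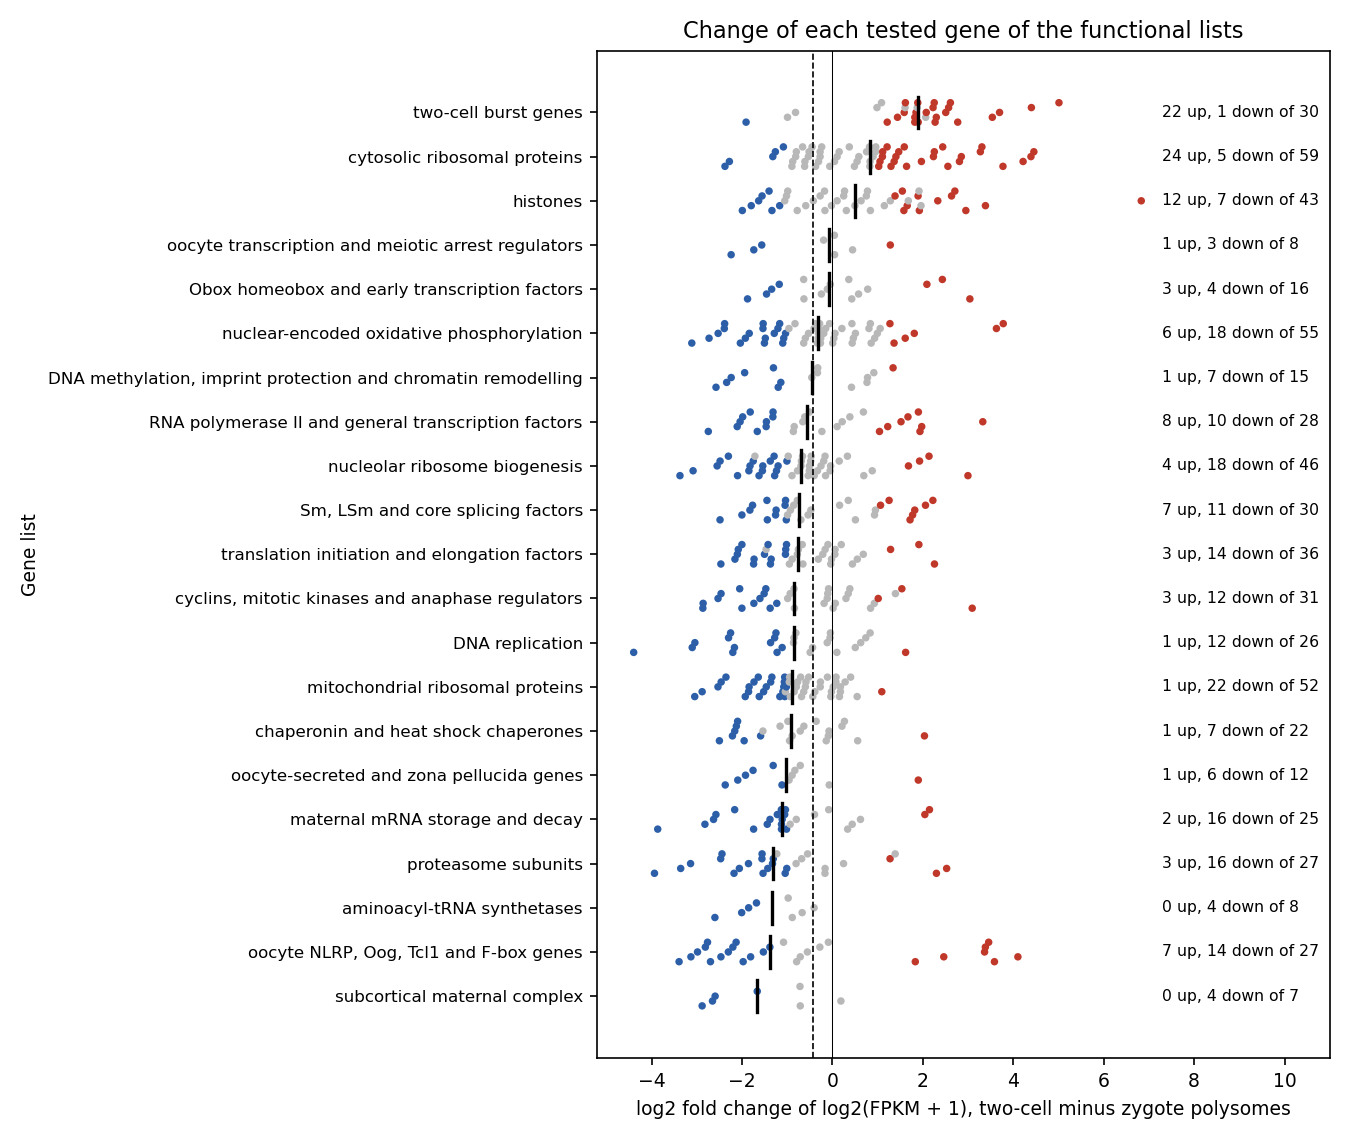
Change of each tested gene of the functional lists with at least 7 tested genes, as log2(FPKM + 1) in two-cell minus zygote polysomes (x axis). Each point is a gene, red if called higher, blue if called lower and grey otherwise; the short bar is the list's median, the dashed line the median of all tested genes (-0.44), and the numbers at the right are genes called up and down of those tested. Burst genes (22 up, 1 down of 30) lie to the right and proteasome subunits (3 up, 16 down of 27) to the left.

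The largest fall was that of Txnip, the thioredoxin-interacting protein that limits glucose uptake. Txnip was at 311, 217 and 260 FPKM in zygote libraries B, C and D and 10.3, 5.47 and 12.5 FPKM in two-cell libraries A, B and C (-4.71, SE 0.32), so that no two-cell library came near a zygote library. Fen1, the flap endonuclease of DNA replication, went from 28.1, 28.1 and 20.5 FPKM to 0.237, 0.511 and 0.0412 FPKM (-4.40, SE 0.24). Pnpla3, a lipase of lipid droplets, went from 102, 69.0 and 87.8 FPKM to 4.07, 3.25 and 3.47 FPKM (-4.23, SE 0.22). Rgs2, a regulator of G-protein signalling, went from 196, 192 and 191 FPKM to 19.998, 4.54 and 18.5 FPKM (-3.88, SE 0.50). Irf1, a transcription factor of the interferon response, went from 23.7, 30.9 and 28.6 FPKM to 1.42, 1.57 and 1.61 FPKM (-3.49, SE 0.20), and Oas1h, of the oligoadenylate synthetase family, fell by 3.48.

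Products of the oocyte were among the abundant mRNAs that fell. Bmp15 and Gdf9, growth factors that the oocyte secretes to its follicle, were at 125, 92.1 and 118 FPKM and at 75.7, 107 and 80.1 FPKM in two-cell polysomes, down from 489, 467 and 475 FPKM and from 364, 304 and 329 FPKM (-2.10, SE 0.18, and -1.92, SE 0.20). Of the 12 oocyte-secreted and zona pellucida genes tested 1 rose, Oosp3 by 1.90 (SE 0.32), and 6 fell (50%, against 29.8% of all genes), while 5 were not called. Genes of the subcortical maternal complex, which the embryo needs to pass the first cleavages, gave 4 lower (57.1%), 3 not called and none higher of 7 tested. Padi6 went from 203, 150 and 174 FPKM to 32.4, 15.3 and 23.6 FPKM (-2.88, SE 0.30), Tle6 and Khdc3 gave -2.60 and -2.65, and Ooep went from 669, 847 and 969 FPKM to 236, 250 and 290 FPKM (-1.66, SE 0.19).

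Factors for storage and decay of maternal mRNA gave 16 lower and 2 higher of 25 tested (64% and 8%, against 29.8% and 14.7% of all genes) and a median of -1.11. With zygote B, C or D left out 9 of 24 members were called lower in each case, when 1102 of 4735, 1080 of 4752 and 1050 of 4725 of all genes were. Zar1, which holds mRNAs in the oocyte's mitochondria-associated store, went from 225, 186 and 213 FPKM to 37.4, 33.5 and 18.4 FPKM (-2.82, SE 0.29), after 1321 FPKM in GV oocytes. Pabpn1l, a poly(A)-binding adaptor of maternal mRNA decay, went from 210, 255 and 229 FPKM to 9.87, 17.9 and 18.5 FPKM (-3.87, SE 0.27), and Dazl fell by 2.63. The exceptions were Ybx2, the germ-cell Y-box protein MSY2, at 34.1, 45.6 and 31.5 FPKM against 6.39, 6.98 and 9.42 FPKM (2.15, SE 0.24), and Zfp36l2, an AU-rich element binding protein, which rose by 2.04 (SE 0.35).

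Most oocyte F-box genes on chromosome 9 fell. Of 14 tested Fbxw genes at chr9:109139447-109790670, 12 were called lower, 2 were not called and none was higher, where 29.8% of all genes were lower and 14.7% higher. The summed level was 25.9 to 49.7 FPKM in two-cell against 237 to 332 FPKM in zygote polysomes. Fbxw24 was at 11, 4.60 and 10.5 FPKM against 72.0, 55.8 and 63.8 FPKM (-2.81, SE 0.33), and Fbxw14 at 8.52, 3.22 and 5.06 FPKM against 51.1, 34.0 and 40.8 FPKM (-2.76, SE 0.34). Both counts were the same with quantile normalization and with libraries scaled to one sum. The promoters of 11 tested members share the run of 11 bases in capitals, which was found in 13 promoters of the table. The stretches of Fbxw14 and Fbxw24, chr9:109287677-109287796 and chr9:109626060-109626179, both on the minus strand of GRCm38.p6, are shown beside the promoters of the rising Tcl1b family as the falling counterpart.
Fbxw14: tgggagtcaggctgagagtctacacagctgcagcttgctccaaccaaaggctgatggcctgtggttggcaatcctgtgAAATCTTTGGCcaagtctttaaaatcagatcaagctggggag
Fbxw24: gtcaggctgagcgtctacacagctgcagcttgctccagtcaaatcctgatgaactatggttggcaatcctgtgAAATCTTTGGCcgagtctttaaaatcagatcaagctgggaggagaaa
The Oog genes, of an oocyte family with leucine-rich repeats, divided instead. Oog3 rose, to 202, 156 and 155 FPKM from 49.5, 43.6 and 48.2 FPKM (1.83, SE 0.19), while Oog4 went from 47.3, 45.6 and 47.1 FPKM to 4.22, 3.42 and 5.97 FPKM (-3.13, SE 0.23), and 3 of the 4 members fell.

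Cell cycle genes moved in both directions. Of 31 tested cyclins, mitotic kinases and anaphase regulators, 3 rose and 12 fell, or 9.68% and 38.7% against 14.7% and 29.8% of all genes tested. The median of -0.84 was -0.46 without zygote C and -0.51 without zygote D. Aurka was at 6.55, 8.51 and 5.41 FPKM against 57.4, 55.0 and 53.7 FPKM (-2.87, SE 0.22), Plk1 at 14.9, 16.3 and 21.4 FPKM against 108, 99.2 and 108 FPKM (-2.53, SE 0.21), and the checkpoint gene Bub3 fell by 2.86. Tacc3, a spindle protein, went from 42.5, 54.6 and 44.6 FPKM to 4.07, 2.96 and 1.53 FPKM (-3.69, SE 0.30). Cdc20, the activator of the anaphase-promoting complex, was at 23.0, 35.9 and 23.4 FPKM against 2.02, 3.37 and 1.65 FPKM (3.09, SE 0.29, limma adjusted p = 0.0003). Pttg1, the separase inhibitor securin, rose by 1.53 (SE 0.39) to 495, 754 and 415 FPKM, and Cenpa, the centromeric histone, gave 1.01 (SE 0.31), just past the fold limit. Cenpa lost its call without two-cell A (0.80) or C (0.90) and without zygote B, C or D (0.99, 1.03 and 1.02). Ccna2, cyclin A2, gave 0.30 (SE 0.26, limma adjusted p = 0.36).

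DNA replication gave 1 higher and 12 lower of 26 tested (46.2% lower against 29.8% of all genes), with Rfc3 and Rpa2 at -3.10 and -3.04 and the helicase subunit Mcm2 up by 1.62. In 6 of the 12 the two-cell mean was below 1 FPKM, so that they passed the minimum through the zygote libraries. Genes of DNA methylation, imprint protection and chromatin remodelling gave 1 higher and 7 lower of 15, or 6.67% and 46.7%, with a median of -0.46 close to the -0.44 of all genes. In 4 of the 7 the two-cell mean was likewise below 1 FPKM. Zfp57, which protects imprints, went from 185, 177 and 203 FPKM to 48.9, 22.2 and 43.7 FPKM (-2.34, SE 0.31), Uhrf1 and the arginine methyltransferase gene Prmt5 gave -2.24 and -2.58, and the histone chaperone gene Asf1b rose by 1.34. Npm2, a chaperone of maternal chromatin, gave 0.76 (SE 0.25), under the fold limit. Of the genes that keep oocytes in meiotic arrest or run their transcription, 8 were tested, with 1 higher, 3 lower and 4 not called (12.5% and 37.5% against 14.7% and 29.8% of all genes) and a median of -0.08. That median was -0.28 without two-cell B and -0.01 without zygote B. Mos, the kinase that starts the MAPK cascade of meiosis, went from 70.6, 87.9 and 87.0 FPKM to 16, 24.8 and 11.1 FPKM (-2.24, SE 0.30), and Nobox and Lhx8 gave -1.74 and -1.56, whereas the kinase Mapk3 rose by 1.28 (SE 0.26).

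Part of the rising mRNAs had been below 1 FPKM in polysomes at earlier stages, a limit that does not mean absence. Among the 697 higher genes, the zygote polysome mean was below 1 FPKM in 338, against 652 of all 4747 tested genes. In 178 (25.5%) the mean was below 1 FPKM in both fractions of zygotes and of GV oocytes, against 327 of all (6.89%). In 173 (24.8%) it was below 1 FPKM in polysomes of all 4 earlier stages, GV, MII, zygote and M-phase zygote, against 312 of all 4747 tested genes (6.57%). A zygote level is part of how these genes were called, so the counts describe them and test nothing. Of the 173, 105 are protein-coding, 26 are processed pseudogenes, 12 are unprocessed pseudogenes and 10 are lincRNAs. Obox8 was listed at 0.01 FPKM at all 4 earlier stages and at 24.8 FPKM in M-phase two-cell embryos. Zscan4d, in contrast, had a mean of 1.56 FPKM in MII oocytes and 6.44 FPKM in M-phase two-cell embryos.

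Other rising genes returned from an earlier high. The mean in M-phase zygotes was above the interphase two-cell mean in 158 of the 697 (22.7%), against 54.9% of all tested genes. For MII oocytes this held for 138 (19.8%), against 61.7% of all. A two-cell level is part of how these genes were called, so the counts are descriptions. Cdc20 had been at 141 FPKM in MII oocytes and 166 FPKM in M-phase zygotes, Romo1 at 119 FPKM and Polr2c at 56.1 FPKM in M-phase zygotes. Among the falling genes, levels at the M-phase two-cell stage were lower still for Txnip (0.0628 FPKM), Zar1 (2.58 FPKM), Gdf9 (21.3 FPKM) and Bmp15 (9.83 FPKM). M-phase embryos had been treated with nocodazole, so that phase and drug cannot be told apart in these means. The plot of 6 stages shows the 3 patterns.

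**Figure D4:**
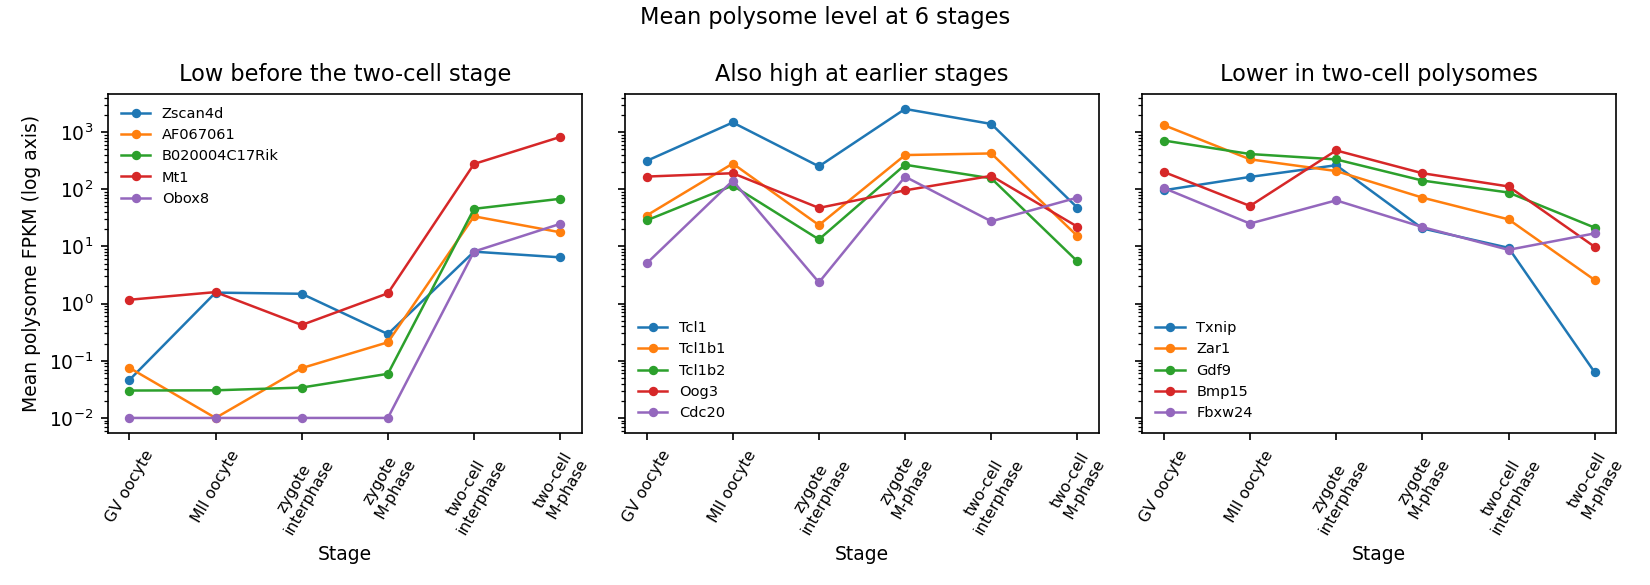
Mean polysome level (FPKM, log axis) at 6 stages from GV oocyte to M-phase two-cell embryo, each point the mean of 3 libraries, for 15 genes in 3 panels. Left, Obox8 and B020004C17Rik stay below 0.1 FPKM until the two-cell stage; middle, Tcl1 and Cdc20 dip in the interphase zygote; right, Txnip, Zar1, Gdf9, Bmp15 and Fbxw24 are lower in two-cell than in zygote interphase.

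Polysome changes mostly went with changes outside polysomes. Of the 697 higher genes, 687 had a value in the fit that included the non-polysome libraries, and in 628 of them the non-polysome difference was also positive, with medians of 1.83 there and 1.91 in polysomes. Over all tested genes, 1507 of the 4512 with a value had a positive and 3003 a negative difference outside polysomes, with a median of -0.64. Of the 1414 lower genes, 1272 of the 1376 with a value also had a negative difference outside polysomes, with medians of -1.45 and -1.59. Both fractions come from the same gradients. The difference between the fractions' changes was tested as an interaction over 12 libraries, and of 5283 genes 137 (2.59%) changed more positively in polysomes and 169 (3.2%) more negatively. This count depended on single libraries: it was 1, 7 and 1 without zygote B, C or D and 610, 676 and 654 without two-cell A, B or C, against 306 with all. The fit did not pair the fractions of a gradient, and with a block for the gradient it was 97, of which 44 were positive and 53 negative. Which direction held more genes depended on scaling and offset. There were 251 positive and 65 negative genes with libraries scaled to one sum, and 268 and 174 with quantile normalization. With nothing added to FPKM there were 193 and 67, and with a minimum of 5 FPKM 112 and 122.

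Cdc20 rose in polysomes with little change outside them. Its non-polysome level was 39.0, 53.8 and 51.9 FPKM in two-cell and 34.0, 47.2 and 43.0 FPKM in zygote libraries, a difference of 0.22 against 3.09 in polysomes (interaction 2.88, limma adjusted p = 0.00498). Mapk3 and Polr2c showed the same direction, with 1.28 in polysomes against -0.32 outside and 3.33 against 1.29, but were not called with the gradient block (limma adjusted p = 0.0829 and 0.0641). Dppa3, a maternal factor that protects DNA methylation, was the opposite case. Its non-polysome level was 299, 327 and 276 FPKM against 217, 215 and 129 FPKM, while it fell from 142, 131 and 168 FPKM to 42.8, 28.5 and 42.2 FPKM in polysomes (interaction -2.66, limma adjusted p = 0.00345). H3f3a gave -1.63 in polysomes and 0.63 outside, with an adjusted p of 0.0516 under the gradient block. Cdc20 and Dppa3 were called with that block, both at an adjusted p of 0.0347.

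Some genes rose in both fractions but less in polysomes. Obox8 was at 59.0, 93.3 and 60.3 FPKM outside polysomes, a rise of 6.09 against 3.04 (interaction -3.05, limma adjusted p = 0.0082), and Nop16, a nucleolar protein gene, rose by 5.29 outside and 2.14 in polysomes. Elob, which encodes elongin B, rose by 4.41 outside and 2.00 in polysomes. Of the burst list, AF067061 rose by 7.32 outside and 5.01 in polysomes and Gm4027 by 5.95 and 3.70, and AF067061 was not called with the gradient block (limma adjusted p = 0.0607). With nothing added to FPKM, the interaction of Obox8, Nop16, Elob, AF067061 and Gm4027 was not called. With libraries scaled to one sum, that of Nop16 was called and those of the others were not. Ooep and Txnip fell less in polysomes than outside, with -1.66 against -3.72 and -4.71 against -7.24. Txnip was not called with the gradient block (limma adjusted p = 0.0505) or with nothing added. Differences between fractions passed the threshold for 23 of 187 named genes, of which 8 were called with the gradient block, none without zygote B or D and only Dppa3 without zygote C.

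**Figure D5:**
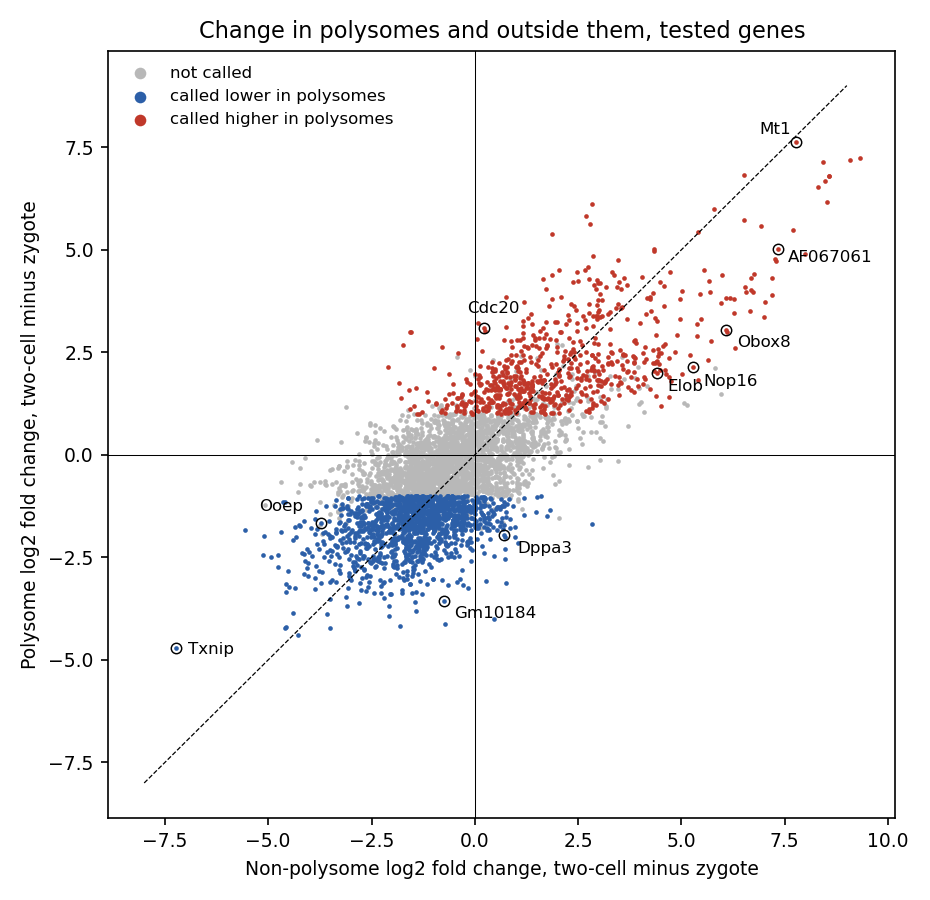
Change from zygote to two-cell embryo outside polysomes (x axis) and in polysomes (y axis), both as log2(FPKM + 1) in two-cell minus zygote, for tested genes, each point a gene. Red and blue mark genes called higher and lower in polysomes and the dashed line marks equal change; Cdc20 (0.22 outside, 3.09 in polysomes) lies above the line and Obox8 (6.09, 3.04) below it.

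Rising genes were by median shorter than falling ones, as a description without a test. The longest annotated transcript had a median of 1466 bases and 4 exons in protein-coding genes called higher, 2313 bases and 7 exons in those called lower and 2145.5 bases and 6 exons in all tested. Single-exon genes made up 11.9%, 3.99% and 6.98%. With the genes split by length into 5 bins, 25% of the shortest (231 to 1280 bases) were called higher and 20.2% lower, against 5.53% and 33.4% of the longest (3509 bases and more). Long genes have more fragments behind a given FPKM, and the part of this in the calls was not tested. By annotation class, 117 processed pseudogenes were higher and 142 lower of 603 tested, and antisense RNAs gave 18 higher and 10 lower of 69, which is 19.4% and 23.5% and 26.1% and 14.5%, against 12.2% and 32.4% of protein-coding genes, with medians of -0.06 and 0.27 against -0.54 for protein-coding genes.

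Among markers of other cells, Hba-a1 of the erythroid list was called higher, as given above, and so was Krt18 of the oviduct list. The 5 erythroid genes summed to 34.3 to 83.7 FPKM in two-cell and 0.261 to 0.315 FPKM in zygote libraries. Krt18, a keratin of the oviduct epithelium and also of early embryos, was at 23.7, 25.1 and 9.25 FPKM in two-cell and at most 0.045 FPKM in zygote polysomes (4.20, SE 0.38). Only 2 of the 6 oviduct genes in the table were tested, their summed level was 9.44 to 31.2 FPKM against 1.15 to 2.31 FPKM, and the defining marker Ovgp1 was at most 0.0131 FPKM in any library. Only 1 of the 7 sperm genes in the table was tested, and it was not called, with summed levels of 3.12 to 6.40 FPKM against 2.87 to 3.12 FPKM.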

How the data were processed

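The authors sequenced RNA of polysome and non-polysome fractions from SMART-seq v4 libraries. Per the submitters' processing notes, reads were trimmed with Trim Galore 0.4.1, mapped to GRCm38 with STAR 2.5.3a and processed in Partek. The deposited table holds normalized FPKM of 23125 genes in 36 libraries, with a smallest value of 0.01, and 2 of 38 labelled samples, both of zygotes, have no column. Absolute library depth is unknown, and counting error could not be computed. Relative to zygote D, depth was 0.880, 0.903 and 0.821 in two-cell A, B and C and 0.965 and 0.880 in zygote B and C. Stop coordinates lie 1 base past GENCODE ends and were reduced by 1.

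limma 3.58.1 (R 4.3.3; empirical Bayes with a trend, two-sided) was run on log2(FPKM + 1) of the 6 polysome libraries for genes whose mean reached 1 FPKM, with Benjamini-Hochberg adjustment over all genes tested, and on 12 libraries for the interaction with the fraction. P-values measure the spread between libraries. Shared sequence was counted as 31-base words of transcripts, and promoters came from RefSeq (GRCm38.p6). Python 3.11.15, pandas 2.3.3, numpy 2.4.6, scipy 1.17.1 and matplotlib 3.10.9 did the rest. On simulated data the fit recovered 128 of 200 planted changes and called 10 other genes of 4747. The simulation gave both groups the same spread for a gene, so it does not test the unequal spreads of these groups.

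The comparison and gene lists were chosen with earlier results of these data known. Named genes are the 15 largest rises and 15 largest falls among called protein-coding genes without overlap whose mean reached 10 FPKM, up to 3 called genes per direction and the 2 most abundant of each list, and genes the study follows up. All others, including those of runs and families, were named after their values were seen. Alternatives were other offsets, filters, scalings, sets of libraries, sample weights, replicate blocks and leaving out each library. One gene of a list is counted but not reported here.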

Additional observations from a re-analysis of the deposited data

Results flagged for a closer look

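For 23 of 187 named genes the change from zygote to two-cell embryo differed between polysomes and the non-polysome fraction by limma's interaction test (adjusted p below 0.05), each with 3 libraries per group. Over all 5283 genes in that fit, 2.59% were called positive and 3.2% negative, and the named genes were chosen mostly for their polysome change. This balance turned to 251 positive and 65 negative genes with libraries scaled to one sum, and to 193 and 67 with nothing added. Few calls were left when a zygote library was left out, and the cause was not tested. Of all genes 1, 7 and 1 were called without zygote B, C or D, and of the 23 named genes none, 1 (Dppa3) and none. With a block for the gradient 97 genes were called, and 8 of the 23: Cdc20, Dppa3, Elob, Gm10184, Gm4027, Nop16, Obox8 and Ooep. Given as the polysome change minus the non-polysome change on the log2 scale, 7 differences were positive and 16 negative, and none changed sign in any of up to 14 alternatives. Positive differences were those of Cdc20 (2.88), Txnip (2.53), Rps2 (2.52), Ooep (2.05), Polr2c (2.04), Gm10925 (1.99) and Mapk3 (1.6). Cdc20 passed the threshold in 11 of 14 alternatives and Rps2 in 5.

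Negative differences among genes that rose were those of Nop16 (-3.15), Obox8 (-3.05), B020031M17Rik (-2.56), Elob (-2.41), AF067061 (-2.31), Gm4027 (-2.25), B020004C17Rik (-2.22) and Gm13867 (-2.19). With nothing added to FPKM these genes were not called, and with libraries scaled to one sum only Nop16 was. Among genes that fell, negative differences were those of Gm10184 (-2.82), Dppa3 (-2.66), Arl6ip1 (-2.37), H3f3a (-2.26), Rpa2 (-2.26), Rpl14 (-1.84), Tbp (-1.68) and Srsf2 (-1.49). Dppa3 passed in 12 of 14 alternatives and Rpa2 in 4. Gm10184 shares 95.8% of its words with Kpna2, so its own level is uncertain.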

How the results depend on the processing

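No called gene was called in the other direction under any alternative, and 121 of 187 named genes kept their call under all of those in which they could be tested. Against 697 higher and 1414 lower genes, a minimum of 5 FPKM gave 392 and 654 of 1957 tested genes, and protein-coding genes alone gave 460 higher of 3743 tested; both test fewer genes. A fit of all 36 libraries with nothing added and a geometric mean filter gave 782 lower and 490 higher of 7967, and the cause was not tested. Leaving out each library in turn gave 606 to 759 higher and 1050 to 1543 lower genes. For the interaction (306 genes), it gave 1 to 676, and a block for the gradient gave 97; the causes were not tested. The groups share only the replicate letters B and C, whose libraries gave r of -0.0014 and 0.038 between their deviations. Pairs with unlike letters ran from -0.108 to 0.0928. With 3 libraries per group this cannot decide whether a letter stands for a shared batch. With a replicate block 600 genes were higher and 970 lower. The difference in genes detected was -393.7, between -309 and -441 with a library left out, where the smallest exact p is 0.2. The unknown absolute depth limits what can be said of genes near 1 FPKM.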
